A study of Mus musculus with 6 samples.

Results

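The genes described here are 47 genes of DNA replication and S phase, the part of the cell cycle in which the genome is copied. They were chosen by symbol from the deposited count table, in which 26981 genes had at least 1 count in the 5 deeper libraries, and all 47 names had a row. Poly(A) RNA was sequenced from samples that the labels call bone marrow MSC, mesenchymal stromal cells, of C57BL/6 mice. One group, Hes1KO, came from mice with a floxed Hes1 allele (Hes1fl/+) bred with Prx1Cre mice (3 libraries), and the other was labelled WT, wild type (3 libraries). The number of deleted Hes1 alleles, the Cre status of the WT mice, the age and sex of the animals and whether each library is a separate animal are not given in the labels, so p-values measure only the spread between these libraries. Prx1Cre is driven by regulatory sequence of Prrx1, which is active in early limb bud mesenchyme and in part of the head mesenchyme, a lineage apart from the blood-forming cells of the marrow.

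Chromosome copying starts with the loading of the ring-shaped MCM helicase onto origins, by the origin recognition complex with Cdc6 and Cdt1. Cdc45 and the GINS complex then join MCM to make the active helicase, primase and the replicative polymerases copy the strands, the RFC loader places the PCNA clamp, and RPA coats the exposed single strand. Many of these genes are driven by E2F transcription factors and are transcribed together in late G1 and S phase. In bone marrow, proliferating progenitors of the red cell, myeloid and B cell lines express them, while mature neutrophils and late red cells have stopped dividing.

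RefSeq promoters on build GRCm38.p6 were matched by symbol for 38 of the 47 genes, 9 of them among the 14 genes that passed the test given further on. The 250 bases before the start were searched on both strands for an E2F word (TTTCCCGC, TTTCGCGC, TTTGCCGC or TTTGGCGC), for CCAAT, the word bound by NF-Y, and for a cell cycle homology word (CHR, TTTGAA or TTCGAA). A few are shown, to let the shared letters be seen. Rpa3 and Pold2 are the promoters with an entry among the 5 passed genes of smallest p, and Gins3 and Mcm5, picked after the words were counted, are the passed genes with an E2F word. Capitals mark E2F and CCAAT words on either strand, so that ATTGG is CCAAT and GCGGGAAA is TTTCCCGC on the other strand. All are given 5′ to 3′ on the gene's own strand.
Rpa3, chr6:8259142-8259391, minus strand: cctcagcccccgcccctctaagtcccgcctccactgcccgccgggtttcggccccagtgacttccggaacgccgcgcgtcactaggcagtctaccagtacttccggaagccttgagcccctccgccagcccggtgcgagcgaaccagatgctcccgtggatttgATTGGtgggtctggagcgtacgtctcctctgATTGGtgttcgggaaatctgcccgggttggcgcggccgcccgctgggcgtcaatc
Pold2, chr11:5878257-5878506, minus strand: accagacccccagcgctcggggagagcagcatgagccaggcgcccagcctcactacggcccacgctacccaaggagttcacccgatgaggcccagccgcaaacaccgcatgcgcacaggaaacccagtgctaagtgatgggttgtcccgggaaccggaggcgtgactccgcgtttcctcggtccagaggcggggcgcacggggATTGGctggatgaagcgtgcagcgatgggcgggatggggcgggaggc
Gins3, chr8:95633309-95633558, plus strand: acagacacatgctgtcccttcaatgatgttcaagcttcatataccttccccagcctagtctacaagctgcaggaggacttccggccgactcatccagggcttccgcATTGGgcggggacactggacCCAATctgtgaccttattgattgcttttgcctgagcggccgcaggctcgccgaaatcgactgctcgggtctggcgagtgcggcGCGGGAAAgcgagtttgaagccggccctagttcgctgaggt
Mcm5, chr8:75109259-75109508, plus strand: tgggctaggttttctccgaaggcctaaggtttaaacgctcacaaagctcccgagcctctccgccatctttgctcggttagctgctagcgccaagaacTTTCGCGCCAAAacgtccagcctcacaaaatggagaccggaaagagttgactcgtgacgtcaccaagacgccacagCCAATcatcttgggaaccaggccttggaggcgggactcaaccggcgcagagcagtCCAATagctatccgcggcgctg

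In Gins3 the E2F word starts 41 bases before the start. In Mcm5, TTTCGCGC on the gene's strand and TTTGGCGC on the other overlap, at 153 and 149 bases before the start, and CCAAT stands at 77 and 22 bases. Rpa3 carries CCAAT on the other strand at 86 and 55 bases, and Pold2 at 47 bases. A further Pold2 promoter, not shown, has CHR words at 236 and 171 bases. Words were counted per gene, in any of its promoters. An E2F word was present for 9 of the 38 genes (23.7%), against 3.61% of the 12080 genes tested without WT replicate 1 that had a promoter. Counted per promoter and not per gene, it was in 1.86% of all 32851 promoters. CCAAT was present in 23 of 38 (60.5%, against 40.2% of tested genes), and a CHR word in 7 of 38 (18.4%, against 16.0%). The E2F word was found in 2 of the 9 passed genes and in 7 of the other 29 genes, a difference that was not tested. These matches describe letters in this window and do not show that a factor bound there.

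The deposited values were read counts per gene. The Hes1KO libraries held 20563116 to 22131465 counts, while WT replicates 2 and 3 held 5812598 and 12109170. WT replicate 1 held 66167, so that 1 count there equals 15.1 CPM (counts scaled to a library of 1e+06), and its counts are given apart. The libraries also differed in the cell types whose RNA they held. Erythroid markers took 43.0% of WT replicate 3 and 0.0249% to 0.381% of the others, and mature neutrophil markers took 4.42% to 13.1% of the Hes1KO libraries against 1.31% and 0.0332% of WT replicates 2 and 3. Of 12 mesenchymal stromal markers, Prrx1 had 0 to 2 counts and Lum 0 or 1 in any library, and all 12 together took at most 0.00366% of a library. The labelled stromal cell type was therefore barely represented in the RNA. Hes1, the targeted gene, had 185, 220 and 255 counts in the Hes1KO libraries and 0, 310 and 345 in WT replicates 1 to 3. Its log2 fold change without WT replicate 1 was -2.55 ± 0.31 (SE, edgeR adjusted p = 0.0294). With all 6 libraries it was -2.12 ± 1.01 (edgeR adjusted p = 0.364). The table cannot show which exons those reads came from.

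Fold changes came from edgeR's quasi-likelihood test over all genes, with Benjamini-Hochberg adjusted p and a threshold of 0.05, and are log2 of Hes1KO over WT with SE. With all 6 libraries, 0 of 14756 genes passed (0%), with 2200 at an unadjusted p under 0.05, 813 by DESeq2 and 0 by limma-voom. None of the 47 replication genes passed by any of the 3 tools. In the edgeR fit 43 were higher in Hes1KO and 4 lower, with a median of 0.69 against 0.03 over all genes. Cdc45, Rpa1 and Prim1 had unadjusted p under 0.05, and the smallest adjusted p, of Cdc45, was 0.316. Levels scaled by TMM, edgeR's factor for library composition, put every Hes1KO library above every WT library for 21 of the 47 (44.7%), against 22.5% of all tested genes.

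Without WT replicate 1, 14 of the 47 replication genes rose in Hes1KO (29.8%) and 0 fell, against 7.44% of 16190 tested genes that rose and 8.09% that fell (1204 and 1309, or 803 and 1790 with upper quartile scaling). The 14 were Gins1, Gins2, Gins3 and Gins4 of the GINS complex, Rfc2, Rfc4 and Rfc5 of the clamp loader, Rpa2 and Rpa3 of RPA, Pold2, Orc6, Gmnn, Dut and Mcm5. Their log2 fold changes ran from 0.81 for Rpa2 to 1.59 for Gins2. The median over the 47 was 0.81 against 0.02 over all genes, with 42 higher and 5 lower. Every Hes1KO library stood above both WT libraries on the scaled level for 32 genes (68.1%, against 31.2% of all genes), and on plain CPM for 22 (35.1% of all genes), the 14 among them. In bulk RNA, more dividing cells and more of each mRNA per cell cannot be told apart.

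The calls rest on the spread among 5 libraries. Leaving out Hes1KO replicate 1, 2 or 3 left 0 calls among the 47 and among all genes. Scaling by library size alone, limma-voom with quality weights and a block on replicate number also left 0. Upper quartile scaling left 5 of the 47, and the legacy quasi-likelihood fit and limma-voom 6 each. Leaving out WT replicate 2 or 3 keeps 1 WT library, so only fold changes are given for those fits. The median over the 47 was 1.06 without WT replicate 2 and 0.54 without WT replicate 3. Over all genes it was 0.12 and 0.10. In the edgeR fit of the 5 libraries, Mcm5 passed last, at an adjusted p of 0.0499, and Prim1 was next outside at 0.0556.

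**Figure D1:**
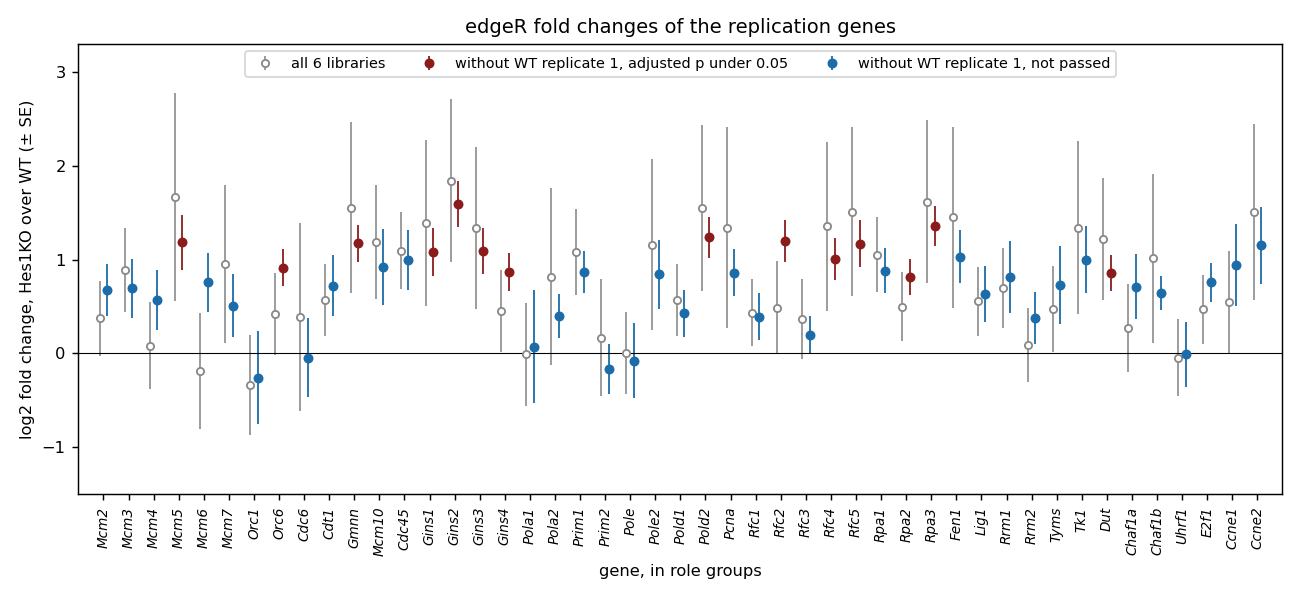
Log2 fold change of each of the 47 genes, Hes1KO over WT, in role order along the horizontal axis, with bars of 1 SE on the vertical axis. Open grey points use all 6 libraries and filled points leave out WT replicate 1, dark red where the adjusted p passed (14 genes, 0.81 to 1.59) and blue where it did not.

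The levels that follow are TMM-scaled CPM of the 5 deeper libraries, Hes1KO replicates 1 to 3 and then WT replicates 2 and 3, with the raw count of WT replicate 1 added. Such values compare libraries for a gene and not genes with each other. Summed over the 47 genes they were 6047, 4561 and 5835 in Hes1KO and 4186 and 2746 in WT. Each Hes1KO sum lay above each WT sum, with Hes1KO replicate 2 nearest to WT replicate 2. As a plain share of the library the sums were 7627, 4802 and 7219 CPM in Hes1KO and 6257, 5695 and 1220 CPM in WT replicates 1 to 3. On that scale WT replicates 1 and 2 lay above Hes1KO replicate 2, and the groups overlapped.

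**Figure D2:**
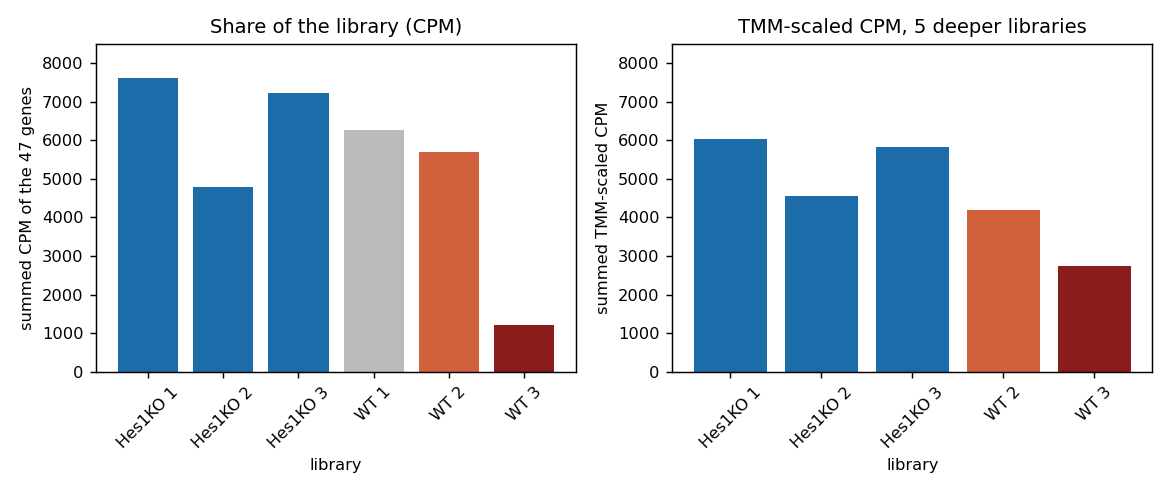
Summed level of the 47 genes per library, as plain CPM of 6 libraries on the left and as TMM-scaled CPM of the 5 deeper libraries on the right, 1 bar per library. The Hes1KO bars overlap with WT replicates 1 and 2 on the left (4802 to 7627 against 6257 and 5695) and stand above both WT bars on the right (4561 to 6047 against 4186 and 2746).

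The MCM2-7 genes encode the ring that unwinds DNA ahead of the fork. All 6 were higher in Hes1KO without WT replicate 1, by 0.51 to 1.19 with a median of 0.69, and 1 of 6 passed. Mcm5, which closes the ring next to Mcm2, was at 410, 322 and 397 scaled CPM in Hes1KO and 194 and 136 in WT, with 0 counts in WT replicate 1. The Hes1KO libraries were 2.28 times the WT mean, with no overlap, and its log2 fold change was 1.19 ± 0.29. Mcm6, which had the most reads of the set, was at 474, 354 and 443 in Hes1KO and 297 and 204 in WT, and did not pass (0.76 ± 0.31, edgeR adjusted p = 0.131). Its 106 counts in WT replicate 1 turn its value with all 6 libraries to -0.18 ± 0.62. Mcm3 was at 313, 225 and 297 against 212 and 133, with 10 counts in WT replicate 1, and its groups did not overlap either (0.69 ± 0.31, adjusted p = 0.157). Mcm4 and Mcm7 overlapped, since WT replicate 2 lay above Hes1KO replicate 2. Per kilobase of exon, the Hes1KO means of the 6 genes lay within 64.3 (Mcm4) and 109 (Mcm5), as scaled CPM per kb, for a ring that holds 1 copy of each subunit.

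The licensing genes decide where and when MCM is loaded, and 2 of 5 rose. Orc6, the smallest subunit of the origin recognition complex, was at 62.2, 53.4 and 56.6 in Hes1KO and 32.9 and 28.1 in WT, with 8 counts in WT replicate 1. Those values did not overlap (0.91 ± 0.20, adjusted p = 0.0409), although with WT replicate 1 the fold change was 0.42. Gmnn encodes geminin, which binds Cdt1 after S phase begins and blocks a further round of loading. It was at 73.8, 66.3 and 70.9 against 34.0 and 28.3, with 0 counts in WT replicate 1, again without overlap (1.17 ± 0.20, adjusted p = 0.0305). Cdt1, the loader that geminin holds, was at 94.9, 89.1 and 91.0 against 74.5 and 36.6, with 8 counts in WT replicate 1. The Hes1KO libraries were close together and the WT libraries far apart (0.72 ± 0.32, adjusted p = 0.156). Cdc6 and Orc1, the ATPases of the loading step, went the other way in WT replicate 2, with 92.3 for Cdc6 and 24.2 for Orc1 above every Hes1KO library. WT replicate 3 was below every Hes1KO library for the same pair, and their fold changes were -0.04 and -0.26.

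The helicase activation genes had the highest median of the role groups, 1.04, and 4 of 6 rose. The 4 that rose are the subunits of GINS, a complex of Gins1, Gins2, Gins3 and Gins4 that bridges Cdc45 and the MCM ring. Gins2 was at 33.5, 31.0 and 31.8 scaled CPM in Hes1KO and 12.5 and 8.74 in WT, with 0 counts in WT replicate 1. It had the largest change of the 47 genes, with a Hes1KO mean 3.02 times the WT mean and no overlap (1.59 ± 0.25, adjusted p = 0.0300). Gins1 was at 36.8, 31.6 and 36.8 against 19.9 and 13.2 (1.08 ± 0.26), and Gins3 at 22.0, 19.3 and 23.8 against 11.6 and 8.74 (1.09 ± 0.25), each with 0 counts in WT replicate 1. Gins4 was at 36.5, 40.4 and 36.4 against 19.1 and 22.3, with 5 counts in WT replicate 1 (0.87 ± 0.20). For all 4 the lowest Hes1KO library was above the higher WT library. Gins4 differed in order, with Hes1KO replicate 2 highest and WT replicate 2 lowest of their groups. Cdc45, the third part of the active helicase, was at 84.8, 67.3 and 87.1 against 52.0 and 27.7, with 3 counts in WT replicate 1. Its libraries did not overlap, and its adjusted p was 0.0809 without WT replicate 1 (1.00 ± 0.32) and 0.316 with it (1.10 ± 0.41). Mcm10, which helps to fire the assembled helicase, was higher by 0.92 ± 0.40 and did not pass.

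The polymerase and primase genes had the lowest median, 0.41, and 1 of 8 rose. Pold2, the accessory B subunit of polymerase delta, which copies the lagging strand, was at 44.8, 34.0 and 41.5 in Hes1KO and 16.8 and 17.1 in WT, with 0 counts in WT replicate 1. Its WT libraries were nearly equal and lay under every Hes1KO library (1.24 ± 0.22, adjusted p = 0.0312). Pold1, the catalytic subunit of the same enzyme, was at 142, 105 and 159 against 96.2 and 106, with 7 counts in WT replicate 1. Here WT replicate 3 lay between the Hes1KO libraries (0.43 ± 0.25, adjusted p = 0.252). Prim1, the catalytic subunit of primase, was at 88.4, 66.8 and 83.6 against 48.3 and 39.0, with 2 counts in WT replicate 1. It did not overlap (0.87 ± 0.23, adjusted p = 0.0556). Pola1, Prim2 and Pole had their highest scaled level in WT replicate 2, at 169, 59.7 and 118, and fold changes of 0.07, -0.17 and -0.08.

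The clamp and its loader followed, with 3 of 6 genes rising and a median of 0.93. Pcna encodes the clamp that holds polymerases on DNA. It was at 277, 242 and 264 in Hes1KO and 164 and 123 in WT without overlap, and missed the threshold (0.86 ± 0.25, adjusted p = 0.0651). WT replicate 1 had 0 Pcna counts where the mean CPM of the other libraries would give 16.0. Rfc2, a small subunit of the ATP-driven loader, was at 122, 125 and 121 against 44.8 and 61.7, with 18 counts in WT replicate 1. It had the tightest Hes1KO values of the loader, with no overlap (1.20 ± 0.23, adjusted p = 0.0330), although with WT replicate 1 the value was 0.49 ± 0.50. Rfc4 was at 51.1, 44.5 and 52.5 against 28.2 and 21.0 (1.00 ± 0.22), and Rfc5 at 53.2, 44.8 and 54.2 against 26.9 and 18.2 (1.17 ± 0.25), each with 0 counts in WT replicate 1. For both genes the Hes1KO libraries stood above both WT libraries. Rfc1, the large subunit, and Rfc3 had fold changes of 0.39 and 0.19 and their libraries overlapped, so the 5 loader subunits fell into a passed and an unpassed set whose difference was not tested.

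RPA is a trimer that protects single-stranded DNA, and 2 of its 3 genes rose. Rpa3, the smallest subunit, was at 27.8, 30.9 and 30.2 in Hes1KO and 10.5 and 12.6 in WT, with 0 counts in WT replicate 1 (1.36 ± 0.22, adjusted p = 0.0302). Rpa2, the subunit phosphorylated under replication stress, was at 74.0, 66.4 and 74.8 against 38.4 and 43.1, with 8 counts in WT replicate 1 (0.81 ± 0.19, adjusted p = 0.0456). Neither overlapped between the groups. Rpa1, the large DNA-binding subunit, was at 197, 144 and 194 against 102 and 91.5, with 6 counts in WT replicate 1. It did not overlap, and its adjusted p was 0.0604 without WT replicate 1 (0.88 ± 0.24) and 0.317 with it.

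Okazaki fragments are trimmed by the flap nuclease Fen1 and sealed by the ligase Lig1, and neither gene passed. Fen1 was at 115, 83.3 and 109 in Hes1KO and 61.1 and 39.0 in WT, with 0 counts in WT replicate 1, without overlap (1.03 ± 0.28, adjusted p = 0.0611). Lig1 was at 214, 146 and 211 against 146 and 99.3, with 15 counts in WT replicate 1. Hes1KO replicate 2 and WT replicate 2 were almost equal (0.63 ± 0.30, adjusted p = 0.169).

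Of the 5 genes that supply nucleotides, Dut rose. Dut encodes dUTPase, which keeps uracil out of DNA, and was at 123, 111 and 118 in Hes1KO and 66.3 and 63.2 in WT, with 1 count in WT replicate 1. Its groups were tight and did not overlap (0.86 ± 0.19, adjusted p = 0.0418). Rrm1, the large subunit of ribonucleotide reductase, was at 376, 252 and 363 against 249 and 127, with 25 counts in WT replicate 1. Hes1KO replicate 2 and WT replicate 2 were almost equal (0.81 ± 0.38, adjusted p = 0.172). Rrm2, the subunit whose level rises in S phase, Tyms, which makes thymidylate, and Tk1, which salvages thymidine, had fold changes of 0.38, 0.73 and 1.00 and did not pass. A pseudogene of Tyms, Tyms-ps, has a row of its own, and how the authors' counting shared reads between them is not given.

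None of the chromatin genes passed. Chaf1b, a subunit of the CAF-1 complex that deposits histones behind the fork, was at 48.4, 43.7 and 47.3 in Hes1KO and 29.8 and 29.7 in WT, with 0 counts in WT replicate 1. It did not overlap (0.64 ± 0.18, adjusted p = 0.0649). Uhrf1, which brings DNA methylation to the new strand, was at 285, 187 and 294 against 323 and 191, with 29 counts in WT replicate 1. WT replicate 2 was the highest library and the fold change was -0.01 ± 0.35. Chaf1a, the partner of Chaf1b, was at 0.71 ± 0.35 with overlapping libraries.

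The G1/S genes, E2f1, which activates many of the genes above, and the cyclins Ccne1 and Ccne2 of Cdk2, had a median of 0.94, and none passed. E2f1 was at 67.1, 62.8 and 59.5 in Hes1KO and 42.0 and 32.5 in WT, with 7 counts in WT replicate 1 (0.76 ± 0.21, adjusted p = 0.0604). Ccne2 was at 76.6, 43.7 and 51.5 against 34.9 and 16.5, with 0 counts in WT replicate 1 (1.15 ± 0.41, adjusted p = 0.0987). Neither gene overlapped, and the Hes1KO libraries of Ccne2 were spread more widely than those of E2f1.

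**Figure D3:**
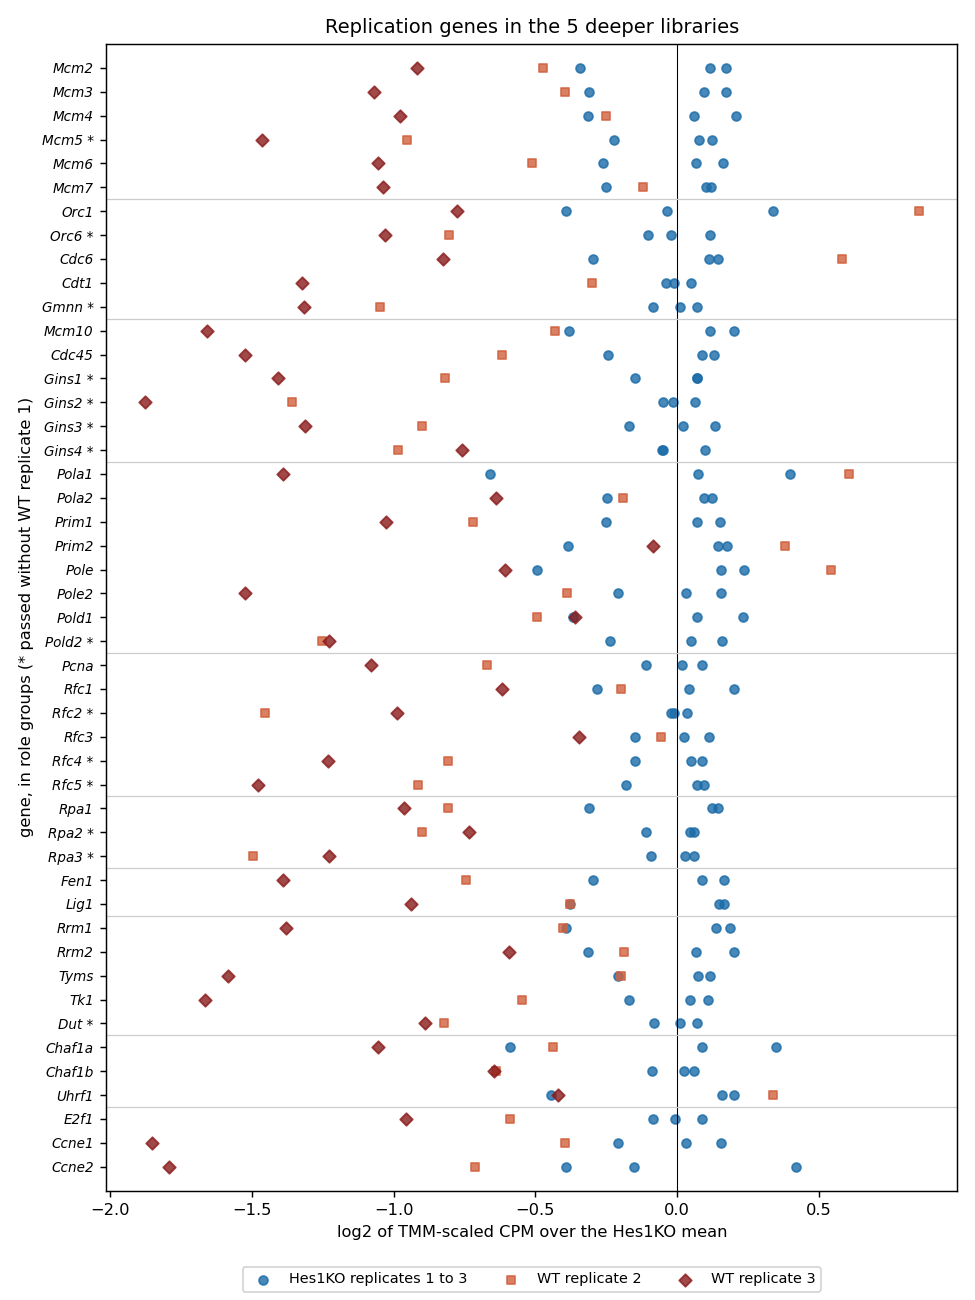
Level of each of the 47 genes in the 5 deeper libraries, as log2 of TMM-scaled CPM over the Hes1KO mean on the horizontal axis, with genes in role groups on the vertical axis and 1 symbol per library. WT replicate 3 (dark diamonds) lies below every Hes1KO library (blue circles) for 44 genes and WT replicate 2 (orange squares) for 33. The share of all tested genes in these orders was not counted.

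The order of libraries was shared by most of the 47 genes. On plain CPM, WT replicate 3 was the lowest of the 5 deeper libraries for all 47 genes and Hes1KO replicate 2 the lowest of the Hes1KO libraries for all 47. On scaled levels these counts were 41 genes with WT replicate 3 below WT replicate 2, and 43 with Hes1KO replicate 2 lowest of Hes1KO. The median log2 ratio to the Hes1KO mean was -1.05 in WT replicate 3 and -0.51 in WT replicate 2, against -0.08 and -0.11 over all genes tested. On plain CPM, WT replicate 2 was above at least 1 Hes1KO library for 25 genes and above all 3 for 6. How many of all tested genes follow each of these orders was not counted, so the counts do not set the 47 genes apart. Plain CPM also makes no correction for the erythroid markers, which took 43.0% of WT replicate 3. The direction of a few genes turned with the WT library kept: without WT replicate 2 and without WT replicate 3, the log2 fold change was 0.83 and -0.55 for Cdc6, 0.78 and -0.82 for Orc1, 1.40 and -0.58 for Pola1, 0.61 and -0.51 for Pole, 0.094 and -0.35 for Prim2, and 0.43 and -0.31 for Uhrf1. Tyms kept its sign but moved from 1.59 to 0.23.

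Marker genes of marrow cell types also differed between the libraries, and the lists did not share 1 order. The summed early myeloid progenitor markers, and the scarce mesenchymal stromal markers at 4.21 to 36.6 CPM, were lowest in Hes1KO replicate 2 and WT replicate 3 within each group of deeper libraries, as the replication genes were. Progenitor markers, such as Mpo and Elane, summed to 6023, 2186 and 5229 CPM in Hes1KO against 6861 (454 counts), 2692 and 54.3 CPM in WT, replicates 1 to 3 each. Mpo was the largest single part of that sum in every library. Cebpe, picked after its values were seen, was instead highest in Hes1KO replicate 2 (103, 180 and 110 CPM in Hes1KO). Without WT replicate 1, 7 of those 8 markers were higher in Hes1KO and 0 passed. Mature neutrophil markers summed to 44226, 130653 and 55653 CPM in Hes1KO and 4821, 13061 and 332 CPM in WT replicates 1 to 3, with all 10 higher and 1 passed. They were highest in Hes1KO replicate 2, the lowest of the Hes1KO libraries for the replication genes, and lowest in WT replicate 3, as the replication genes were. Macrophage and monocyte markers summed to 12230, 22141 and 12897 CPM against 10761, 2480 and 212, with 5 of 8 passed as higher without WT replicate 1, against 7.44% of all genes. B lineage markers summed to 1140, 1143 and 1915 CPM against 227, 6015 and 3305, with all 12 lower in Hes1KO and 3 passed, against 8.09% of all genes. Erythroid markers summed to 558, 249 and 3807 CPM against 922, 798 and 429577, with all 16 lower and 0 passed, and most of the sum in WT replicate 3 was globin. T and NK markers summed to 80.7 to 90.5 CPM in Hes1KO and to 831, 31.3 and 53.9 CPM in WT. For the progenitor, macrophage and T and NK markers the sum in WT replicate 1 was thus the highest of the WT libraries. Of its 55 T and NK counts, 51 were of Nkg7, and of its 712 macrophage and monocyte counts, 382 were of Ly6c2. The part of these cell types in the levels of the replication genes was not tested. With the erythroid genes left out of the scaling, the same 14 genes passed. That step changed only the library factors, and the median of the 47 genes was 0.81 with and without it. It therefore does not test the part of red cells in these levels.

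WT replicate 1 was too shallow to place most of the genes. Of the 47, 17 had 0 counts and 35 fewer than 10, and all 47 together had 414 counts, where the mean CPM of the 5 deeper libraries would give 352. The total was thus near that mean, although the deeper libraries ran from 1220 to 7627 CPM, against 6257 CPM in WT replicate 1. The make-up of the 414 counts was not close to the expected one. Mcm6 alone held 25.6% of those counts, with 106 where 26.7 would be expected. Mcm4 had 38 and Rrm2 35, where 15.2 and 16.9 would be expected. Mcm5 had 0 counts where 22.1 would be expected, Pcna 0 where 16.0 would be, and Mcm7 1 where 15.1 would be. Genes with like expected counts thus stood at opposite ends in this library. In the deeper libraries the smallest count of any of the 47 genes was 42 (Orc1, WT replicate 3) and the largest 13245 (Mcm6, Hes1KO replicate 1).

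**Figure D4:**
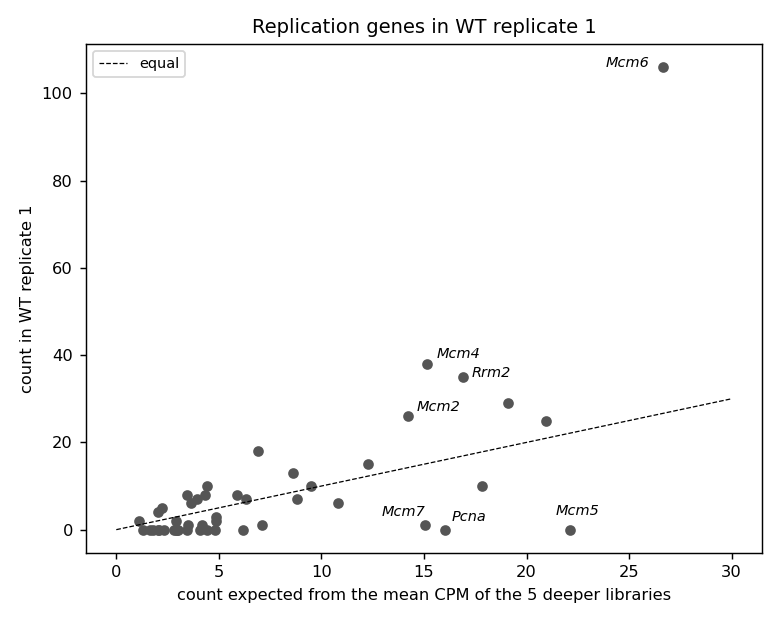
Count of each of the 47 genes in WT replicate 1 on the vertical axis against the count expected from the mean CPM of the 5 deeper libraries on the horizontal axis, with equality dashed and 1 point per gene. Mcm6 lies far above the line (106 against 26.7) and Mcm5 and Pcna lie at 0 (22.1 and 16.0 expected).

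The genes that passed were mostly short. Gene span, the length from first to last exon on GRCm38.p6, had a median of 10723 bases among the 14 and 20150 among the other 33, and no passed gene was longer than 21725 bases (Gins1). Of the 29 genes under 20 kb, 13 passed, and of the 18 longer ones 1 did. Over all tested genes with a span, 8.87% under 20 kb and 6.15% of the longer ones rose. Across the 47 genes, Spearman's rho of span and log2 fold change was -0.44, against -0.08 over all genes. Against the log2 ratio of WT replicate 2 to the Hes1KO mean rho was 0.44, and for WT replicate 3 it was 0.17. The genes that stood highest in WT replicate 2 were Orc1, Pola1, Cdc6, Pole, Prim2 and Uhrf1, among them the 2 longest of the 47, Pola1 at 327622 bases and Prim2 at 216001. Genes share their libraries, so these correlations describe the 5 libraries and carry no test.

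**Figure D5:**
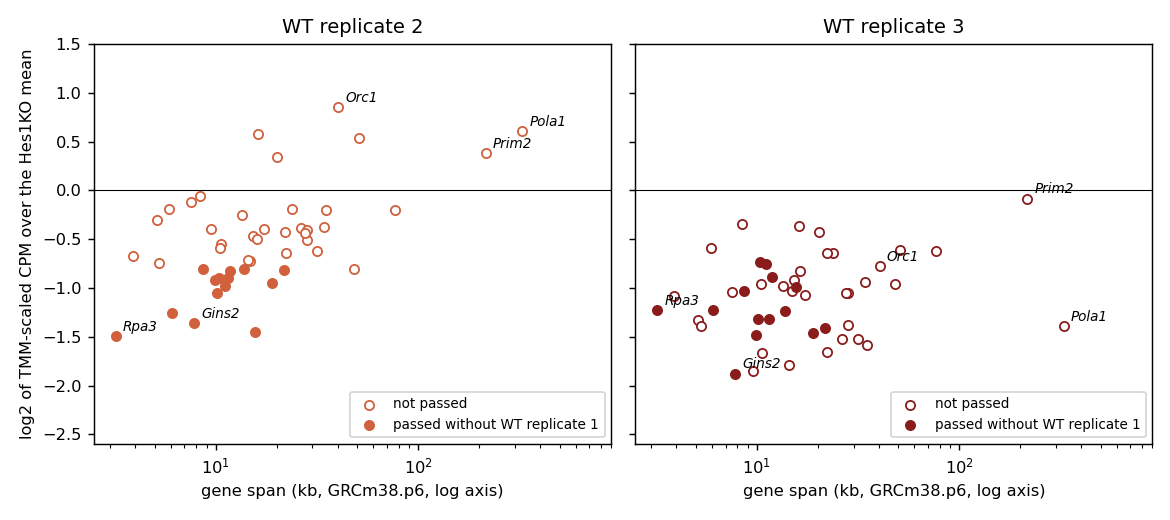
Gene span in kb on a log horizontal axis against log2 of the TMM-scaled CPM of WT replicate 2 (left) or WT replicate 3 (right) over the Hes1KO mean, 1 point per gene, filled for the 14 that passed without WT replicate 1. In WT replicate 2 the long genes Pola1 and Prim2 stand above 0 (rho 0.44). Lowest there are Rpa3, Rfc2 and Gins2, in that order, with spans of 3206, 15639 and 7810 bases. In WT replicate 3 the relation is weaker (rho 0.17).

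Of 38 other genes of the same process, 5 rose and 1 fell without WT replicate 1, with a median of 0.60. Over all 16190 genes tested, 7.44% rose and 8.09% fell, with a median of 0.02, and these are the values to read the counts of each further list against. Rnaseh2c and Rnaseh2b, subunits of the RNase H2 that removes ribonucleotides from DNA, rose by 2.30 ± 0.32 and 1.28 ± 0.19. Asf1b, a histone chaperone, rose by 1.46 ± 0.20, and Tipin, a fork protection factor, by 1.06 ± 0.22. Rnaseh2c was at 54.4, 79.9 and 52.0 scaled CPM in Hes1KO and 10.1 and 15.1 in WT. Cdca7, named after its value was seen, also rose (1.02 ± 0.24), and Rrm2b, the ribonucleotide reductase subunit used outside S phase and induced by p53, was the 1 that fell (-1.22 ± 0.30, edgeR adjusted p = 0.0491).

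Of 28 G1/S regulators tested, 2 rose and 1 fell, with a median of 0.38, so the share that rose was no larger than over all genes. Cdk4, the kinase of cyclin D, rose by 0.87 ± 0.21 and the repressor E2f6 by 1.17 ± 0.29, while Fbxw7, part of the ligase that degrades cyclin E, was lower by -0.81 ± 0.20. Of 20 mitosis genes, Ccnb2 (1.09 ± 0.20) and Birc5 (1.36 ± 0.33) rose and none fell, with a median of 0.96, and 2 of 20 is near the share of all genes. In these further lists, histones included, 0 genes passed with all 6 libraries.

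The mRNAs of replication-dependent histone genes mostly lack a poly(A) tail and are made in S phase. Of 20, 1 passed, H2bc4 at -1.69 ± 0.39, a share under the 8.09% of all genes that fell. The fitted values were below 0 for 19 of 20, with a median of -3.59, and for most of them the levels show 1 library behind this. H2bc4 itself was at 21.9, 21.9 and 17.9 scaled CPM in Hes1KO and 95.1 and 37.9 in WT replicates 2 and 3. For H2bc4, H1f2 and H2ac8 both of these WT libraries lay above every Hes1KO library. Summed over the 20 histone genes, the level was 177, 174 and 214 CPM in Hes1KO and 106, 3180 and 80.2 CPM in WT replicates 1 to 3. On the scaled level the sums were 140, 165 and 173 in Hes1KO, 2337 in WT replicate 2 and 181 in WT replicate 3, so that WT replicate 2 stood apart from the other 4 libraries. H1f1, a linker histone picked for the lowest fold change of the 20, was at 6.24, 4.11 and 8.95 CPM in Hes1KO. It was at 521 CPM in WT replicate 2 and 1.98 CPM in WT replicate 3. On the scaled level, WT replicate 2 was below every Hes1KO library for 33 of the 47 replication genes. The share of all tested genes in that order was not counted, so no contrast with the histones is drawn.

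Of the 47 genes, 16 have exons that overlap an exon of another annotated gene in GENCODE M21, among the passed ones Orc6 with Vps35, Gins2 with Gse1, Rfc2 with Lat2, Rfc4 with Eif4a2 and Rfc5 with Wsb2, all on the opposite strand. The kit keeps strand, but no source used here gives the setting used for counting, so reads of such neighbours may be shared. The remaining 31 genes have no such overlap, and 9 of the 14 passed genes are among them.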

How the data were processed

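Read counts per gene were used as the authors deposited them, in 1 table of 6 libraries. The submitters' processing notes name GRCm39, edgeR and limma, and featureCounts is named in the table's title. For the aligner, annotation and strand setting: not given in the sources used here. Counts were fitted over all genes with edgeR 4.0.16 (R 4.3.3): filterByExpr, TMM factors, dispersions, then glmQLFit and glmQLFTest, with p adjusted by Benjamini-Hochberg, with all 6 libraries and without WT replicate 1. DESeq2 1.42.0 and limma 3.58.1 were alternatives. CPM used the total counts, 66167 to 22131465 per library, and scaled CPM the TMM factors of the 5 deeper libraries. On simulated counts with estimated dispersions, the 6-library fit recovered 13 of 100 genes changed 4-fold and 90 of 100 changed 16-fold, and the 5-library fit 38 and 99. Gene spans and promoters came from RefSeq (GRCm38.p6) and exon lengths from GENCODE M21, so no gene coordinates of the authors' build are given. The 47 genes and the lists were chosen with earlier results of these data known. Named were all genes that passed and, in each role group, the gene of smallest p in each fit and of highest mean CPM; of the further lists, at most 4 passed genes of smallest p. Replicate numbers were not used in the main fits. No libraries were duplicates. One further gene list is not reported here.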

Additional observations from a re-analysis of the deposited data

How the results depend on the processing

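With all 6 libraries, none of the 47 genes passed under the alternatives run, except that leaving out 1 library gave 0 to 14 (14 without WT replicate 1). Over all genes the count was 813 by DESeq2 and 0 to 2513 with 1 library left out. The median of the 47 genes was 0.37 with upper quartile scaling, 0.98 with a replicate block and 0.60 to 1.12 with 1 library left out. Over all genes the median was -0.21 with upper quartile scaling and 0.21 with the block. Mcm6 turned to 0.22 with limma-voom, 0.41 with its quality weights, 0.098 with the block and -0.51 to 0.76 with 1 library left out, and Uhrf1 to 0.12 without a filter, 0.088 with quality weights and -0.21 to 0.080 with 1 library left out.

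Without WT replicate 1, calls over all genes numbered 0 with library size alone, quality weights or the replicate block, 4997 by DESeq2, 1440 by limma-voom and 0 to 6210 with 1 further library left out. Calls among the 47 genes numbered 5 with upper quartile scaling, 6 by the legacy quasi-likelihood fit and by limma-voom, 0 with library size alone, quality weights or the block, and 0 to 30 with 1 library left out. The median of the 47 genes was 1.04 with library size alone, where that of all genes was 0.44. The gap between these medians was 0.61 there, against 0.80 in the main fit. It was 0.94 without WT replicate 2 and 0.44 without WT replicate 3. With 1 library left out, the median of the 47 genes was 0.54 to 1.06. Uhrf1 turned to 0.22 with library size alone, 0.17 without a filter or with quality weights, 0.013 with limma-voom and -0.31 to 0.43 with 1 library left out. Each of the 14 genes stayed higher in 16 of 16 alternatives. How many of these each gene passed in is not given, since some of them keep 1 WT library. Upper quartile scaling moved the median of all genes from 0.02 to -0.19 and split all calls into 803 higher and 1790 lower, against 1204 and 1309, while the 47 genes stayed 0.80 above the median of all genes. Whether the replicate numbers pair the libraries is not settled by their correlations. Deviations of same-numbered libraries correlated at 0.153, 0.00704 and 0.244, and the largest correlation between different numbers was 0.033. Not every library correlated best with its own number. Leaving out a WT library of the 5 leaves 1, assumed to vary like the others. The cause of these changes was not tested. Depth limits WT replicate 1, where 1 count equals 15.1 CPM.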
